A study of Arabidopsis thaliana with 48 samples.

Results

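The comparison set nuclear RNA against cytoplasmic RNA of unstressed wild-type Arabidopsis thaliana. Its members were chosen by label: all 6 nuclear and all 6 cytoplasmic RNA-seq libraries of Col-0 (the wild-type accession) at 21 °C, 12 of the 48 libraries of the study. Both fractions came from rosettes of 14-d-old plants grown in long days and were separated by differential centrifugation, with no sorting of cell types in the labels. The other libraries, used here for the estimate of spread and for 1 comparison at the end, are the same fractions of tho5ab, a mutant of both THO5 genes (THO5 is a subunit of the THO complex, which couples transcription to mRNA export), at 21 °C, and of both genotypes after 3 h at 37 °C, with 6 libraries per group. The labels do not say that replicates came from separate plants, so every p-value measures only the spread between these samples, which may be technical.

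As background, an mRNA is transcribed, capped, spliced and polyadenylated in the nucleus, and is then exported through nuclear pores to be translated and, in the end, degraded in the cytoplasm. The nuclear fraction holds nascent, partly processed and retained transcripts, and the cytoplasmic fraction holds the translated pool. The relative nuclear level of a gene's RNA depends on how fast it is made, processed, exported and degraded. The table gives 1 count per gene and library, which does not separate spliced from unspliced RNA.

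Cytoplasmic libraries held 1140170 to 1574518 counts and nuclear libraries 3009825 to 15464203. Counts are given as CPM, counts per 1000000 of a library total scaled by TMM (a scaling that assumes most genes do not differ). Because each fraction is scaled to itself, a difference says which fraction a transcript is enriched in relative to other transcripts, never how many molecules a cell holds in each. Differences are log2 values, nuclei minus cytoplasm, ± the standard error (SE) from edgeR's quasi-likelihood fit. A gene is called higher or lower when its Benjamini-Hochberg adjusted p is under 0.05. In 5 of the libraries (cytoplasm replicates 1, 4 and 7 and nuclei replicates 4 and 7) genes nested on the strand opposite to an expressed gene had more counts than elsewhere. Their log2 ratio to the host was -4.52 to -3.48 there and -8.69 to -6.23 in the others. Without those 5 libraries 10735 genes were called in place of 12040.

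The 2 fractions differed in most of the transcriptome. Of 17981 genes tested, 12040 (67.0%) were called, 7000 of them (38.9% of those tested) higher in nuclei and 5040 (28.0%) lower in nuclei, that is, relatively cytoplasmic. The median difference over all tested genes was 0.42. The split between directions depends on scaling: 58.1% of the calls were higher in nuclei here, 68.3% with DESeq2 size factors (8820 higher, 4087 lower) and 83.2% with library totals (12218 higher, 2460 lower). Under those scalings the median gene moved by 0.43 and 1.34, so a gene near 0 has no settled direction and the groups described here are read against the median of all genes. A difference of at least 1 was reached by 6019 of the higher and 4217 of the lower calls. Values of all 6 nuclear libraries lay outside the range of the 6 cytoplasmic ones for 8843 genes (49.2%), with nuclei above for 5275 (29.3%).

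Depth set what could be seen at the nuclear end. The 13895 tested genes with at least 20 counts over the 6 cytoplasmic libraries held 4502 higher and 5006 lower calls, with a median of -0.06. Among the 4086 genes under 20 cytoplasmic counts, 2498 were called higher and 34 lower, and 369 genes had no cytoplasmic count at all. For those genes the size of the fitted difference depends on the prior count of the fit, and only a lower bound is given.

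Cytoplasmic RNA was dominated by few genes. The 10 genes with most counts took 24.4% ± 3.04 (SD, n = 6) of a cytoplasmic library and 3.59% ± 0.61 (SD, n = 6) of a nuclear library. When every library was reduced to 1000000 counts, 20283 ± 605 genes (SD, n = 6) had a count in nuclei and 15735 ± 735 (SD, n = 6) in cytoplasm. Both measures separated the fractions with no overlap. The exact 2-sided permutation test gave p = 0.00216 for each, the smallest value that 6 against 6 libraries allow, and the same after Benjamini-Hochberg adjustment over the 5 composition measures.

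The most abundant row in cytoplasm, and one of the most abundant in nuclei, was RR3 (AT2G41310, TAIR10 chromosome 2, positions 17221840 to 17224880, plus strand), a type-A response regulator that dampens cytokinin signalling. It ran from 118563 to 199864 CPM in cytoplasm (median 160390) and from 2763 to 4338 in nuclei (median 3613), and took 10.9% ± 1.73 (SD, n = 6) of all cytoplasmic counts. The fractions did not overlap, and the difference was -5.47 ± 0.24 (edgeR adjusted p = 1.4e-26). The row overlaps AT2G09250, an annotated noncoding RNA of 299 bases on the minus strand (positions 17224503 to 17224801). The strand setting of the counting is not given in the sources used here, so counts of the 2 cannot be told apart. Without the RR3 row, 12036 genes were called.

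Genes at each end were ranked among called genes with a symbol, a certain row, no overlap of libraries, a mean log2 CPM of at least 3 and at least 20 counts in each fraction. Genes outside these limits can lie further out. The first 105 coding bases (spliced, from the RefSeq TAIR10.1 annotation) are shown for the 3 lowest and the 3 highest genes of that ranking, because coding sequence composition and the hydrophobicity of the protein start both track the fraction, as described further on. Capitals mark the 12 codons with the highest mean hydropathy where that mean is at least 2.0. MT2B (metallothionein 2B, chr5:506498-507244, minus strand), DRT112 (plastocyanin, chr1:7042046-7043392, minus) and LHB1B1 (a light-harvesting chlorophyll-binding protein, chr2:14524607-14525918, plus) were the lowest of the ranking. RLP19 (a receptor-like protein, chr2:6533261-6537002, plus), RIK (a KH-domain RNA-binding protein, chr3:11289495-11294774, plus) and CRK18 (a cysteine-rich receptor kinase, chr4:12167416-12170080, minus) were the highest.
MT2B: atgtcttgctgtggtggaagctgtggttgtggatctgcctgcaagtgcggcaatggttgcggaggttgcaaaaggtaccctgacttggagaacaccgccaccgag
DRT112: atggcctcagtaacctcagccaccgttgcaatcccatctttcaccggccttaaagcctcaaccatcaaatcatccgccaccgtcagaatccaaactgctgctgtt
LHB1B1: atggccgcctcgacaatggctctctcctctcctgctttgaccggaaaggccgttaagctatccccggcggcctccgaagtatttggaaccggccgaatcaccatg
RLP19: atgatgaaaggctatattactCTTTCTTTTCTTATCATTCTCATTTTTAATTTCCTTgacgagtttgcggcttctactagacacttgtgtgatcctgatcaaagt
RIK: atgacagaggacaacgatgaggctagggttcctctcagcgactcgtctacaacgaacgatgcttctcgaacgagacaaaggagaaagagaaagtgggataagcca
CRK18: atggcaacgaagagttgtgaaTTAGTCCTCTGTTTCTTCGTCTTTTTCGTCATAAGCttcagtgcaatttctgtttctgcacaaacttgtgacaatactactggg
GC content over the whole coding sequence was 54.3% for MT2B, 51.2% for DRT112 and 56.9% for LHB1B1, against 39.4% for RLP19, 45.7% for RIK and 42.7% for CRK18. The hydrophobic run of RLP19 starts at codon 8 with a mean hydropathy of 2.73, and that of CRK18 at codon 8 with 3.13. RIK and the 3 cytoplasmic genes have no such run.

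Transcripts of the photosynthetic apparatus were strongly cytoplasmic. Of 43 light-harvesting and photosystem subunit genes, 41 were lower in nuclei and 1 higher, with a median difference of -5.24. Together they took 19.5% of cytoplasmic counts (15.1% to 24.4% over libraries) and 0.929% of nuclear counts (0.797% to 1.06%). CAB1, which encodes a chlorophyll-binding antenna protein, ranged from 41747 to 108469 CPM in cytoplasm (median 66624) and from 542 to 762 in nuclei (median 618). The fractions lay far apart, at -6.77 ± 0.24. CAB1 has near-identical copies, so its reads may be shared among them. DRT112, the electron carrier between the photosystems, had 7549 to 10640 CPM in cytoplasm (median 8534) and 89.1 to 133 in nuclei (median 110). LHB1B1 had 2197 to 4754 CPM in cytoplasm (median 4134) and 34.3 to 66.7 in nuclei (median 45.9). Both genes differed by -6.33, with SEs of 0.18 and 0.26, and neither had overlapping libraries. PSBX, PSAD-1, FED A and LHCA3 (subunits of both photosystems and leaf ferredoxin) lay between -6.30 and -5.90. Lhca6, an antenna protein of the complex between photosystem I and NDH, was less extreme at -2.32 ± 0.24. The single member called higher, PSBP-2 (1.69 ± 0.63, edgeR adjusted p = 0.016), was near the detection limit, at 3.54 to 5.18 CPM in nuclei and 0 to 6.16 in cytoplasm, and its row is uncertain through overlap or a near copy.

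Carbon fixation followed the same direction: all 19 Calvin cycle and Rubisco genes were lower in nuclei, with a median of -3.5. RBCS1A, a small subunit of Rubisco, had 9734 to 16081 CPM in cytoplasm (median 12600) and 336 to 627 in nuclei (median 406), a difference of -4.82 ± 0.22. Values of its close relatives differed: RBCS3B stood at -5.24 ± 0.19 and RBCS1B at -2.08 ± 0.15. Reads of similar copies may be shared among them, and 7 of the 19 rows of the list are uncertain through overlap or near copies. The median of the other rows was -3.39. GAPA-2, a subunit of chloroplast glyceraldehyde 3-phosphate dehydrogenase, was the member nearest to 0 at -2.05 ± 0.16. The plastid ribosomal protein genes RPS9 (-5.90 ± 0.21) and PSRP6 (-5.85 ± 0.23) were also among the 10 lowest.

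**Figure D1:**
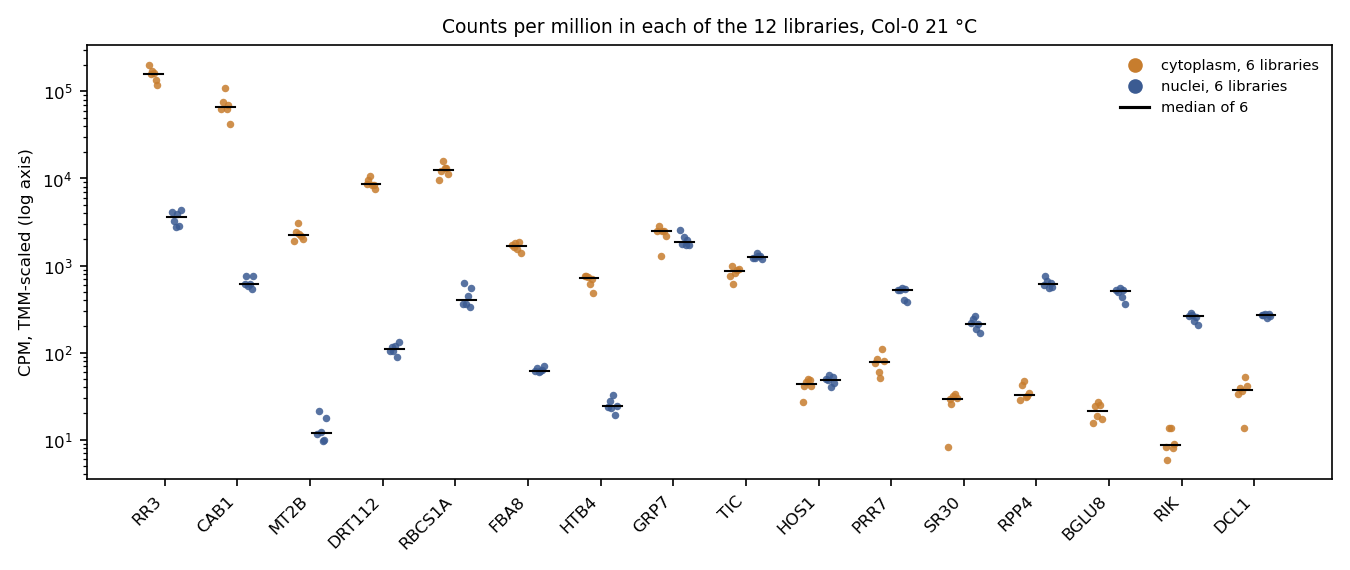
TMM-scaled CPM (log axis) of described genes in the 6 nuclear and 6 cytoplasmic Col-0 libraries at 21 °C, with each point a library and each bar the median of 6. MT2B and CAB1 lie far lower in nuclei, RIK and RPP4 far higher, and the 2 fractions of GRP7 overlap.

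Housekeeping transcripts were also on the cytoplasmic side. MT2B, a cysteine-rich metal-binding protein, was the gene most shifted to the cytoplasm among those ranked, with 1939 to 3100 CPM there (median 2254) and 9.61 to 21.5 in nuclei (median 12). The difference was -7.39 ± 0.26 (edgeR adjusted p = 1.6e-30). All 4 metallothionein genes tested were lower in nuclei, with a median of -5.46 (-4.29 without 1 uncertain row). Of 24 cytosolic ribosomal protein genes 23 were lower and none higher, at a median of -2.74. The lowest were RPS18C (-5.06 ± 0.24), an uncertain row, and PFL (-4.77 ± 0.26), both of the small subunit. Among 18 genes of translation factors and poly(A)-binding proteins 16 were lower and none higher (14 lower and 2 higher with library totals). Their median was -3.29, and -2.64 without the 8 uncertain rows. FBR12, an initiation factor 5A gene, was the lowest at -4.62 ± 0.16, and its row is uncertain through overlap or a near copy. EIF4G, the large scaffold of the cap-binding complex, was not called, at 123 to 152 CPM in nuclei and 111 to 220 in cytoplasm (-0.24 ± 0.13, edgeR adjusted p = 0.108). It passed (edgeR adjusted p = 0.0457) without cytoplasm replicate 4, and became higher in nuclei with library totals (1.09).

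All 10 genes of cytosolic glycolysis were lower in nuclei, with a median of -3.16. FBA8, a cytosolic aldolase, had 1393 to 1873 CPM in cytoplasm (median 1671) and 59.7 to 69.7 in nuclei (median 62.0), a difference of -4.71 ± 0.16 with no overlap. GAPC1, the glycolytic dehydrogenase, stood at -4.14 ± 0.16. Of 22 tubulin and actin genes 21 were lower and none higher (median -2.80), among them ACT7 (-3.76 ± 0.13) and TUB4 (-3.72 ± 0.15). Proteasome subunits were lower in 22 of 27 cases with none higher (median -2.31), from PAC1 (-3.74 ± 0.18), a subunit of the catalytic core, to RPN1B (-0.25 ± 0.17, edgeR adjusted p = 0.203), a large regulatory subunit that was not called. With library totals 20 proteasome genes were lower and 5 higher (median -0.97), and RPN1B was called higher (1.10). Of 16 aquaporin genes 14 were lower and none higher (median -1.59), including the plasma membrane water channel PIP1B (-2.36 ± 0.14). The aquaporins were sensitive to scaling, with 11 lower and none higher with DESeq2 size factors (median -1.18) and 8 lower and 1 higher with library totals (median -0.25).

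Histone transcripts, which encode the proteins that package nuclear DNA, were themselves relatively cytoplasmic: 16 of 18 genes tested were lower and 1 higher, with a median of -2.78. HTB4, an H2B gene, had 488 to 766 CPM in cytoplasm (median 717) and 19.4 to 32.7 in nuclei (median 24.2), a difference of -4.75 ± 0.16. The exception was HTR11, an H3 gene with 1.26 to 4.06 CPM in nuclei and no cytoplasmic count. Against a limit of 3 counts over the group, which covers counting error only, it was at least 3.84-fold higher in nuclei.

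Genes of immune receptors were on the nuclear side. Of 23 NLR genes, which encode intracellular receptors that detect pathogen effectors, 21 were higher in nuclei and none lower, with a median of 1.83. They took 0.576% of nuclear and 0.0492% of cytoplasmic counts. RPP4, a resistance gene against downy mildew, had 548 to 764 CPM in nuclei (median 613) and 28.6 to 46.9 in cytoplasm (median 32.8), with no overlap. The difference was 4.14 ± 0.22 (edgeR adjusted p = 5.2e-23). ADR1-L2, a helper that acts downstream of other NLRs, was the lowest member and was not called, at 35.3 to 47.8 CPM in nuclei and 30.9 to 60 in cytoplasm (-0.26 ± 0.22, edgeR adjusted p = 0.295); with library totals it was called higher (1.09). NLR genes are clustered and similar in sequence, and 12 of the 23 rows are uncertain through overlap or near copies. The median over the other members was 1.86.

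Receptor genes of the cell surface showed the same direction. Among 23 cysteine-rich receptor kinase genes tested, 21 were higher and none lower in nuclei, with a median of 2.63, though 12 had under 20 cytoplasmic counts. CRK18 had 76.9 to 113 CPM in nuclei (median 96.7) and 0.901 to 13.6 in cytoplasm (median 2.43), a difference of 4.68 ± 0.41. CRK30 and CRK4 had no cytoplasmic count and were at least 13.9-fold and 10.2-fold higher in nuclei, against the same limit of 3 counts. RLP19 was the highest of the ranking, with 79.0 to 150 CPM in nuclei (median 96.8) and 0 to 9.86 in cytoplasm (median 1.89), at 4.86 ± 0.45.

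Other strongly nuclear transcripts came from genes of varied function. RIK, an RNA-binding protein first described as a partner of the leaf regulator AS1, had 206 to 284 CPM in nuclei (median 261) and 5.91 to 13.6 in cytoplasm (median 8.68), a difference of 4.72 ± 0.22 (edgeR adjusted p = 4.9e-25). BGLU8, annotated as a beta-glucosidase, had 365 to 555 CPM in nuclei (median 507) and 15.5 to 27.1 in cytoplasm (median 21.6), at 4.5 ± 0.27. In both genes every nuclear library lay far above every cytoplasmic one. The others of the 10 highest were PLDGAMMA2 (a phospholipase D, 4.56 ± 0.30), SR34b (a splicing factor gene outside the SR list, 4.49 ± 0.37), LIG6 (a DNA ligase, 4.23 ± 0.29), PME5 (a pectin methylesterase, 4.21 ± 0.37) and EMB2820 (annotated as a deaminase, 4.10 ± 0.28). Among genes with under 20 cytoplasmic counts and otherwise within the same limits the highest were TTL, CCS (the copper chaperone of superoxide dismutase), SCPL13, hemf2 and UMAMIT13, between 4.10 and 4.41.

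**Figure D2:**
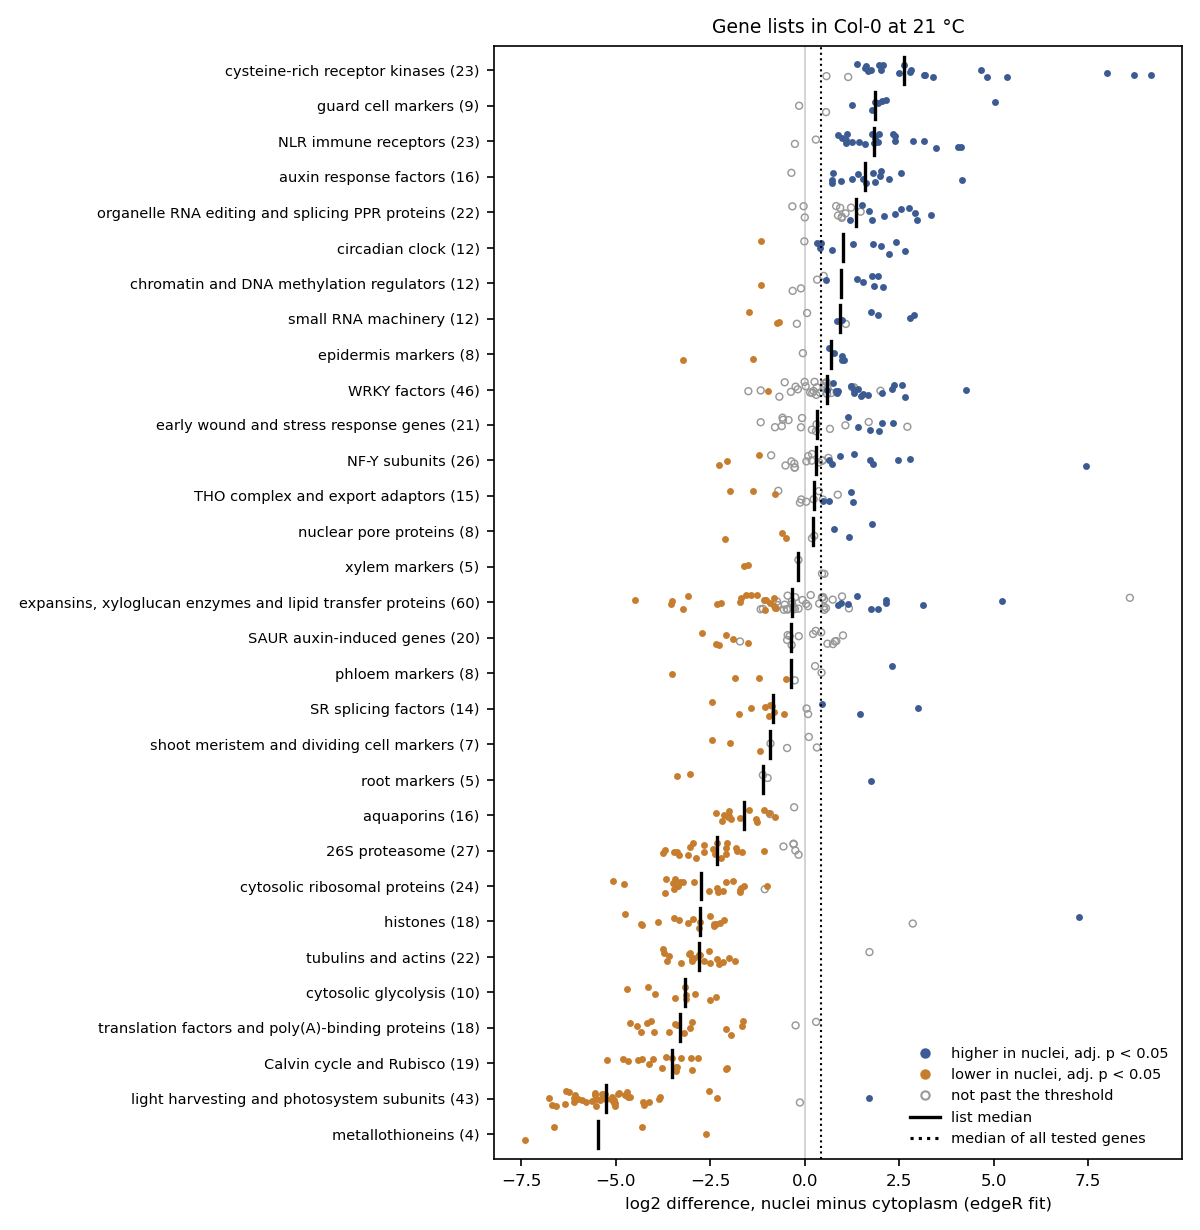
Log2 difference, nuclei minus cytoplasm, of every tested gene in each list (points, filled where called), with each list's median as a bar and the median of all tested genes dotted. The medians of the photosynthesis, metallothionein, translation and glycolysis lists lie below 0 and those of the cysteine-rich receptor kinase, NLR and auxin response factor lists above the 0.42 of all tested genes, while single members of several lists lie across 0.

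Families of regulatory genes differed in position, against 38.9% of all tested genes called higher and a median of 0.42. Auxin response factors, which mediate auxin-dependent transcription, were higher in 15 of 16 cases with none lower (median 1.59), with ARF17 at 2.54 ± 0.33 and ARF11 at 2.24 ± 0.23. The exception, MP, was not called (-0.35 ± 0.34, edgeR adjusted p = 0.364), but was called higher with library totals (0.99). Of 46 WRKY transcription factor genes 18 (39.1%) were higher and 1 lower (median 0.60), close to the share over all genes. WRKY48 was among the higher at 2.58 ± 0.50, and WRKY65 was the one lower at -0.96 ± 0.29, a call lost with DESeq2 size factors (edgeR adjusted p = 0.0962). NF-Y subunits had 9 higher and 3 lower of 26 (median 0.29). With library totals 38 WRKY and 22 NF-Y genes were higher. NF-YC12 had 23.8 to 37.1 CPM in nuclei and a single count in cytoplasm, whereas NF-YC9 was lower in nuclei at -2.06 ± 0.19. SAUR genes, short auxin-induced genes without introns, had none higher and 6 lower of 20 (median -0.37), among them AT1G72430 at -2.25 ± 0.22; their median turned positive with DESeq2 size factors (0.06) and with library totals (0.96). PPR proteins of organelle RNA editing and splicing had 11 of 22 higher and none lower (median 1.36), and 16 of the 22 had under 20 cytoplasmic counts; with library totals 21 were higher.

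Clock genes, which form the transcriptional loops of the daily rhythm, were higher in nuclei in 10 of 12 cases and lower in 1 (median 1.01). PRR7, a repressor of the morning genes, had 380 to 554 CPM in nuclei (median 522) and 50.5 to 109 in cytoplasm (median 78.2), a difference of 2.65 ± 0.17 without overlap. ELF3, of the evening complex, stood at 2.41 ± 0.17, while its partner ELF4, a short gene of 1 exon, was at -1.15 ± 0.27. ELF4 turned to 0.19, not called, with library totals. Chromatin and DNA methylation genes had 7 higher and 1 lower of 12 (median 0.97), with the DNA demethylase DME at 1.94 ± 0.22. With library totals 11 chromatin genes were higher and none lower. The remodeller CHR1 was the one lower (-1.15 ± 0.43, edgeR adjusted p = 0.0163), a call lost without cytoplasm replicate 1 (edgeR adjusted p = 0.0537) and with DESeq2 size factors (edgeR adjusted p = 0.112).

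RNA processing genes were divided, against 38.9% higher and 28.0% lower over all tested genes. Their counts depended on scaling. With library totals 11 small RNA, 12 THO and export, and 7 nuclear pore genes were higher, and 0, 1 and 1 lower. Of 12 small RNA genes 6 were higher and 3 lower (median 0.92). Without the 4 uncertain rows the median was 0.46, near the 0.42 of all tested genes. DCL1, which cuts miRNA precursors, had 251 to 281 CPM in nuclei (median 273) and 13.6 to 52.9 in cytoplasm (median 37.6), at 2.89 ± 0.20. RDR6 stood at 1.95 ± 0.37. AGO4, of RNA-directed DNA methylation, was lower in nuclei at -0.74 ± 0.18, not called with DESeq2 size factors (edgeR adjusted p = 0.111) and higher with library totals (0.60). SR splicing factors had 3 higher and 9 lower of 14 (median -0.83, turning to 0.52 with library totals). SR30 had 167 to 261 CPM in nuclei (median 215) and 8.34 to 33.2 in cytoplasm (median 29.6), a difference of 3.01 ± 0.16. SCL33 was also nuclear (1.47 ± 0.15), whereas SCL30 (-2.46 ± 0.15) and RSZ22 (-1.73 ± 0.13) were cytoplasmic. Of 15 THO and export adaptor genes 4 were higher and 3 lower (median 0.24), with THO2, the largest THO subunit, at 1.28 ± 0.16 and the adaptor AT5G02530 at -1.97 ± 0.17. Nuclear pore genes had 3 higher and 3 lower of 8 (median 0.22), with NUA at 1.78 ± 0.17 and SAR1 at 1.18 ± 0.25 against the export factor RAE1 at -2.10 ± 0.17. HOS1, a pore-associated ubiquitin ligase, was not called, at 40.6 to 55.0 CPM in nuclei and 27.4 to 49.3 in cytoplasm (0.19 ± 0.19, edgeR adjusted p = 0.365), but was higher with DESeq2 size factors (0.62) and library totals (1.53). The rows of DCL1, ELF3, MP, AT5G02530, NUA and RAE1 are uncertain through overlap or near copies.

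The list of expansins, xyloglucan enzymes and lipid transfer proteins went both ways, with 10 higher and 20 lower of 60 (median -0.33, turning to 0.08 with DESeq2 size factors and 1.0 with library totals). LTP2 was lower at -3.53 ± 0.37 and LTP3 at -4.48 ± 0.58, while LTP (AT2G15050) was higher at 3.13 ± 0.27, with 88.9 to 161 CPM in nuclei and 4.76 to 21.0 in cytoplasm. Early wound and stress genes had 6 higher and none lower of 21 (median 0.32, and 11 higher with DESeq2 size factors). Their 28.6% higher lay below the 38.9% over all tested genes, of which 28.0% were lower. CAF1a, a deadenylase subunit, was among the higher at 2.34 ± 0.40. COR15A, a cold-induced protein that protects chloroplast membranes, was cytoplasmic, with 556 to 3524 CPM there (median 1167) and 5.85 to 44.9 in nuclei (median 18.7), at -6.12 ± 0.42.

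Markers of cell types differed in direction, against 38.9% of all tested genes higher and 28.0% lower. Fewer cells of a type and less RNA per cell cannot be told apart in such bulk samples, and a marker's position also includes the marker gene's own nuclear share; their part in other results was not tested. Guard cell markers were higher in 7 of 9 cases with none lower (median 1.86), though 3 of the 9 had under 20 cytoplasmic counts. The potassium channel KAT1 stood at 5.04 ± 0.59, MYB60 at 2.15 ± 0.38 and the kinase OST1 at 1.27 ± 0.26. KAT1 was near the detection limit in cytoplasm, at 0 to 3.71 CPM, so the size of its difference rests on few counts. Epidermis markers had 5 higher and 2 lower of 8 (median 0.71), with KCS6 (wax synthesis) at 1.05 ± 0.14 and the lipid transfer protein LP1 at -3.21 ± 0.19. Phloem markers had 1 higher and 4 lower of 8 (median -0.37), with PP2-A1, an uncertain row, at -3.52 ± 0.15. Xylem markers had none higher and 2 lower of 5 (median -0.16), but 4 of these 5 rows are uncertain and the other stood at -1.61. Meristem and dividing cell markers had none higher and 3 lower of 7 (median -0.90), and root markers 1 higher and 2 lower of 5 (median -1.10). With library totals the medians of the phloem (0.97), xylem (1.17), meristem (0.45) and root (0.26) markers were positive. Summed levels were small: guard cell markers took 0.0468% to 0.0533% of nuclear and 0.00425% to 0.0104% of cytoplasmic counts, and root markers 0.0023% to 0.00362% and 0.00277% to 0.00613%. CASP2, a protein of the root endodermis, had 0.899 to 1.85 CPM in nuclei and 6.16 to 27.2 in cytoplasm.

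The genes with most counts in nuclei included rows that hold small nuclear RNAs. AT4G23420 had 1970 to 5013 CPM in nuclei (median 3906) and 557 to 1758 in cytoplasm (median 770), a difference of 1.82 ± 0.37 (edgeR adjusted p = 2.5e-05). An exon of this row holds the gene of U1.2, a copy of the U1 RNA of the spliceosome, annotated at chr4:12225622-12225786 on the plus strand (165 bases). AT2G35750 had 1967 to 4652 CPM in nuclei (median 2751) and 29.8 to 77.8 in cytoplasm (median 52.6), a difference of 5.83 ± 0.31. Its single exon holds snoR158a (AT2G08770), a small nucleolar RNA annotated at chr2:15029957-15030182 on the minus strand (226 bases). The sequences from RefSeq TAIR10.1 are shown because the counts of these rows cannot be assigned to mRNA or to the small RNA. The first is 30 bases at chr4:12225614-12225643, starting 8 bases before the annotated start, with capitals on the stretch that pairs with 5′ splice sites. The second is the 133 bases of snoR158a at chr2:15029957-15030089 that lie inside the coding sequence of AT2G35750.
U1.2: ACTTACCTGgacggggtcaactcgtgatca
snoR158a: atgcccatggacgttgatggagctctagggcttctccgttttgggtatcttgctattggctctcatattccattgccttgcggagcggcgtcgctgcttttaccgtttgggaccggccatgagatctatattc

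Rows of this kind were nuclear as a class, against 38.9% of all tested genes higher and 28.0% lower. Of 20 tested rows with an annotated snRNA or snoRNA in an exon on the same strand, 14 were higher and 3 lower, with a median of 2.09. Of 19 rows with one in an exon on the opposite strand, 10 were higher and 1 lower (median 1.43). In 30 rows with a snoRNA in an intron of the same strand 8 were higher and 19 lower (median -1.32). All these rows are uncertain.

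Other abundant nuclear transcripts had less contrast between fractions. AT4G05631, of unknown function, was an exception, with 776 to 1560 CPM in nuclei (median 1083) and 10.8 to 56.5 in cytoplasm (median 26.1), at 5.23 ± 0.40. TIC, a clock-associated nuclear regulator, had 1200 to 1407 CPM in nuclei (median 1254) and 609 to 1001 in cytoplasm (median 858), at 0.61 ± 0.13 with no overlap. GRP7, a clock-controlled RNA-binding protein, had 1708 to 2583 CPM in nuclei (median 1876) and 1298 to 2831 in cytoplasm (median 2499). Its fractions overlapped (-0.21 ± 0.15, edgeR adjusted p = 0.208), though it passed without cytoplasm replicate 3 (edgeR adjusted p = 0.0463) and was called higher in nuclei with library totals (1.12). AT3G41762 varied from 15.8 to 5336 CPM over nuclei and from 6.18 to 374 over cytoplasm, and its call (edgeR adjusted p = 0.0479) was lost without any one of cytoplasm replicates 2, 3, 5 and 7 and nuclei replicates 4 and 7.

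Position between the fractions ran along coding length and base composition across the whole transcriptome. In eighths of tested genes by coding length the median difference rose at every step: -1.43, -0.56, -0.09, 0.32, 0.60, 0.87, 1.05 and 1.40. In the shortest eighth, of 42 to 534 bases, 272 genes were higher and 1296 lower of 2269. In the longest, of 2346 to 16203 bases, 1628 were higher and 160 lower of 2239. By GC content of the coding sequence the order was the opposite. The lowest eighth (34.1% to 41.8% GC) had a median of 1.43, with 1288 higher and 232 lower of 2248, and the highest (48.2% to 65.7%) a median of -0.98, with 314 higher and 1186 lower of 2246. Taken jointly, 1901 genes in both the shortest and the most GC-rich quartile had 155 higher and 1180 lower calls (median -1.59). The 1513 genes in both the longest and the most GC-poor quartile had 1137 higher and 44 lower (median 1.75). By mean log2 CPM over the 12 libraries the median fell from 1.97 in the lowest eighth to -0.85 in the highest. The share called lower rose from 5.12% to 57.5%, and the share called higher fell from 46.5% to 28.7%. The abundance gradient was not tested over libraries. This mean comes from the same counts as the difference, so the 2 are not independent. Of the tested genes 4086 had under 20 cytoplasmic counts and 33 under 20 nuclear counts. How far depth and the filter shaped the low end was not tested.

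**Figure D3:**
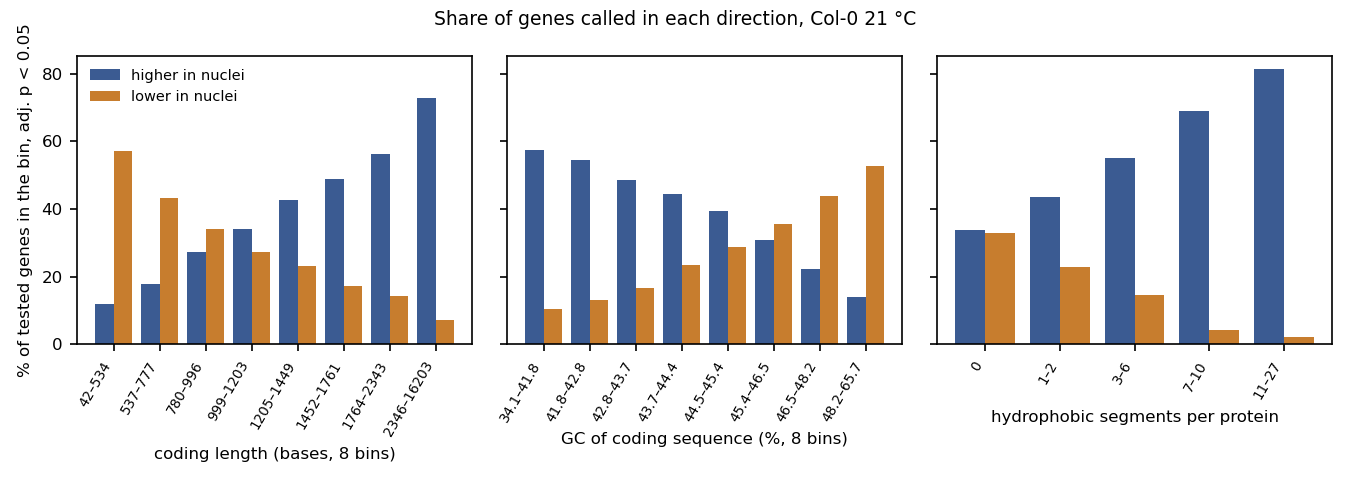
Share of tested genes called higher (blue) or lower (orange) in nuclei, in percent, by eighth of coding length in bases, eighth of coding GC content in percent, and number of hydrophobic segments per protein. The share called higher rises with coding length from 12% to 72.7%, while that called lower falls from 57.1% to 7.15%, and GC content shows the opposite order.

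To test such gradients over libraries, each library was given the difference in mean log2 CPM between 2 classes of genes. The longest minus the shortest quartile of coding sequences was 2.09 ± 0.12 (SD, n = 6) in nuclei and 0.06 ± 0.09 (SD, n = 6) in cytoplasm. Highest minus lowest GC quartile was 0.05 ± 0.15 (SD, n = 6) in nuclei and 2.34 ± 0.15 (SD, n = 6) in cytoplasm. Nuclei thus lay 2.04 above cytoplasm in the length measure and -2.29 from it in the GC measure. Counts of a gene grow with its transcript length, so only these gaps between fractions are read. Both class differences gave p = 0.00216 in the exact 2-sided permutation test, the smallest possible, and the same after adjustment over the 7 classes. The GC difference kept its direction within each quartile of coding length, at -2.08, -1.63, -1.94 and -1.95 from shortest to longest (exact permutation, adjusted p = 0.00333 each). Without the 5 libraries with more opposite-strand counts the gaps were 2.05 for coding length and -2.32 for GC content, and in none of the 7 classes did the 4 nuclear and 3 cytoplasmic libraries left overlap.

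Over all tested genes, gaps by gene structure were smaller. Genes with 8 or more exons minus those with 2 to 7 was 1.23 ± 0.10 (SD, n = 6) in nuclei and 0.40 ± 0.06 (SD, n = 6) in cytoplasm, a gap of 0.83. Within quartiles of coding length the gap was 0.83, 0.28, 0.16 and 0.14, so it was smallest among long genes. Within quartiles of mean log2 CPM, from lowest to highest, the exon gap was 1.13, 1.29, 1.21 and 1.44. Genes without introns minus genes with introns was -1.28 ± 0.17 (SD, n = 6) in nuclei and -0.83 ± 0.08 (SD, n = 6) in cytoplasm, so transcripts without introns were the more cytoplasmic by 0.44. Within quartiles of mean log2 CPM this gap kept its direction, at -0.76, -1.01, -1.04 and -1.21 from lowest to highest. Across coding length it did not. It was -0.17, -0.24 and -0.40 in the 3 shorter quartiles of coding length and 0.21 in the longest. The exact permutation test gave p = 0.0498, 0.0108, 0.00433 and 0.0238 in that order. In the longest quartile the differences per gene did not show that reversal: genes without introns had a median of 1.14, with 180 of 394 higher, and genes with introns a median of 1.25, with 2719 of 4100 higher.

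Transcripts that encode hydrophobic protein starts or segments were relatively nuclear. As background, proteins that begin with a hydrophobic stretch are usually directed to the endoplasmic reticulum, where their mRNAs are translated on bound ribosomes, and hydrophobic segments further along are typical of transmembrane proteins. Genes with a hydrophobic protein start (2886 genes) minus all others was -0.40 ± 0.08 (SD, n = 6) in nuclei and -1.21 ± 0.20 (SD, n = 6) in cytoplasm, a gap of 0.81. Proteins with 3 or more hydrophobic segments minus those with none gave 0.05 ± 0.10 (SD, n = 6) and -1.35 ± 0.14 (SD, n = 6), a gap of 1.41. Libraries did not overlap in either measure (exact permutation p = 0.00216 each). The median difference per gene rose with the number of segments: 0.14 for none (11328 genes), 0.71 for 1 or 2, 1.19 for 3 to 6, 1.66 for 7 to 10 and 1.76 for 11 or more, where 74 of 91 genes were higher and 2 lower. Within quartiles of coding length the segment gap was 0.91, 1.12, 1.36 and 0.96 (exact permutation, adjusted p = 0.00333 each), and the gap for the protein start was 0.25, 0.83, 0.94 and 0.95. No fraction of membrane-bound RNA is labelled, so in which fraction the endoplasmic reticulum went was not tested.

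**Figure D4:**
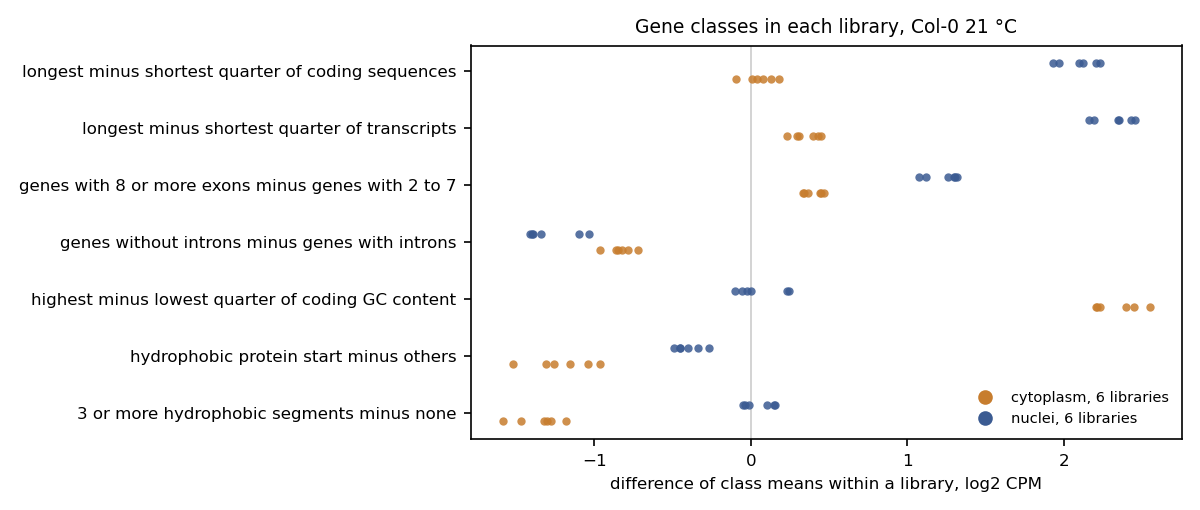
Difference in mean log2 CPM between 2 classes of genes in each Col-0 library at 21 °C, with nuclei and cytoplasm side by side and each point a library. In all classes shown the 6 nuclear libraries lie apart from the 6 cytoplasmic ones, most widely for GC content and coding length.

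Product families of the annotation, of which 108 had at least 15 tested genes, were ordered in a similar way. The most nuclear were S-locus lectin kinases, with 14 of 16 higher and a median of 2.59, and TIR-NBS-LRR proteins, with 44 of 48 higher and 1 lower (median 2.41). Leucine-rich repeat kinases (72 of 93 higher, 2 lower, median 2.14), MATE transporters (29 of 37 higher, 1 lower, median 2.0) and the major facilitator superfamily (66 of 91 higher, 2 lower, median 1.88) are integral membrane proteins. Glycosyltransferases of the Golgi were also among them. Galactosyltransferases had 15 of 17 higher (median 2.33) and Core-2/I-branching enzymes 22 of 24 (median 2.26). O-fucosyltransferases had 27 of 32 higher (median 2.19) and exostosins 18 of 21 (median 2.10), with none lower in these 4. Families with a median of 0 hydrophobic segments lay at a like level. F-box and associated interaction domain proteins had 17 of 23 higher and none lower (median 2.0). PPR repeat-containing proteins had 12 of 18 higher and 3 lower (median 1.99). F-box/RNI-like proteins had 23 of 29 higher and 1 lower (median 1.88), and CC-NBS-LRR proteins 20 of 20 higher (median 1.87). At the cytoplasmic end stood histones (23 of 28 lower, 1 higher, median -3.13), the lipid transfer and 2S albumin family (26 of 38 lower, 1 higher, median -2.32), glycine-rich proteins (16 of 25 lower, 3 higher, median -1.98), small nuclear ribonucleoproteins (15 of 21 lower, none higher, median -1.84), HSP20-like chaperones (15 of 27 lower, 2 higher, median -1.32), thioredoxins (19 of 32 lower, 1 higher, median -1.23) and peroxidases (17 of 37 lower, 3 higher, median -1.20). As background, lipid transfer proteins and class III peroxidases are mostly secreted. Both of these families lay on the cytoplasmic side.

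The same contrast was measured in the other settings of the study. Nuclei against cytoplasm gave 11072 called genes in Col-0 at 37 °C (5868 higher), 12207 in tho5ab at 21 °C (7275 higher) and 11493 in tho5ab at 37 °C (6659 higher). In Col-0 at 37 °C the split moved most with scaling, to 8322 higher of 12218 called with DESeq2 size factors. Whether the difference between fractions itself changed was tested by interaction. It differed between tho5ab and Col-0 at 21 °C for 1151 genes (6.40%), 809 toward nuclei in tho5ab and 342 toward cytoplasm. Between 37 °C and 21 °C in Col-0 it differed for 2878 genes (16.0%), 1325 toward nuclei at 37 °C and 1553 toward cytoplasm. With DESeq2 size factors 1511 of 2893 temperature calls went toward nuclei, so the balance of directions depends on scaling.

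SR30, a splicing factor gene, moved most with temperature among the genes chosen for their interactions. Its difference between fractions was 3.01 in Col-0 at 21 °C, -0.63 at 37 °C and 1.40 in tho5ab at 21 °C, with interactions of -3.63 ± 0.22 for temperature (edgeR adjusted p = 3.9e-18) and -1.61 ± 0.22 for genotype (edgeR adjusted p = 1.0e-06). SCL33 (temperature interaction -2.55 ± 0.20) and SR45a (-2.18 ± 0.19 for temperature, -1.37 ± 0.20 for genotype) moved in the same direction. Toward nuclei at 37 °C moved MUR1 (2.24 ± 0.17), ATMS1 (1.94 ± 0.17) and SAM-2 (1.77 ± 0.15), enzymes of GDP-fucose, methionine and S-adenosylmethionine synthesis that were all cytoplasmic at 21 °C. In tho5ab CSR1, of branched-chain amino acid synthesis, went from -4.27 to -1.79 (interaction 2.48 ± 0.22), PDC2 by 1.83 ± 0.19 and HON5, a chromatin protein, from -1.68 to 0.01 (1.69 ± 0.20), while the cytochrome P450 gene CYP97B3 went from 3.09 to -0.92 (-4.01 ± 0.36). These genes were chosen by their interaction p, so the values describe them and do not estimate a typical change.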

How the data were processed

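RNA-seq was made from nuclear and cytoplasmic fractions of rosettes, with rRNA depletion and the NuGEN Universal Plus RNA-Seq kit, per the labels' protocols. The authors deposited raw counts per gene, 1 column per library. Reads were processed with STAR 2.7.8a, Picard, UMI-tools and featureCounts on TAIR10, per the submitters' processing notes, and how strand and multi-mapped reads were handled is not given in the sources used here. The table has 27420 genes and no spike-in rows, and ERCC RNA was added per the labels' protocols.

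The fit used edgeR 4.0.16 under R 4.3.3 (TMM, filterByExpr, 17981 genes tested, 1 mean per group, all 48 libraries sharing the estimate of spread) and tested by quasi-likelihood with Benjamini-Hochberg adjustment at 0.05. Class differences used log2 CPM with a prior count of 2, summarised per library, and exact permutation tests over every split of the 12 libraries. Lengths, GC content and protein hydropathy (Kyte-Doolittle) came from RefSeq TAIR10.1 coding sequences, which a script translated because no protein table was given. A hydrophobic start is a window of 12 residues within the first 35 with a mean of at least 2.0, and a segment is a window of 19 residues with a mean of at least 1.6. All 27420 identifiers matched. A row is uncertain if it overlaps another gene or has a copy of at least 95% identity over 25% of its length (8469 rows). The fit was also run on simulated counts of 17981 genes, of which 100 differed between fractions by a log2 value of 1 and 100 by 2. It recovered 50 and 80 of them, with 6 false calls. With so few changed genes the simulation cannot show how TMM scaling behaves where most genes differ. No 2 replicates held identical counts, and none agreed within sampling noise.

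The comparison and gene lists were chosen with earlier results of these data known. Named genes are the 10 highest and 10 lowest among called, certain genes with a symbol, a mean log2 CPM of at least 3, at least 20 counts in each fraction and no overlap, the 5 highest under 20 cytoplasmic counts, the 10 most abundant per fraction, up to 3 at each end of a list, and up to 3 per direction of each interaction. Of these 234, a part is described with values. DESeq2 1.42.0, other scalings, filters, left-out libraries and a replicate block were alternatives. Coding length classes, the run without RR3, class values without the libraries with more opposite-strand counts and translated proteins were chosen after seeing the data. The list of export genes was rewritten by locus code after the files were seen.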

Additional observations from a re-analysis of the deposited data

Results flagged for a closer look

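In each group of 6 libraries, the highest or lowest value was set against the rest by Dixon's test at its 95% critical value for 6 samples. Of 262 groups examined, 242 were for the 121 genes described and 20 for the composition and class measures. In 20 of the 262 there was such a library. Chance gives about 1 in 20 for normally distributed values, which low counts are not.

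In cytoplasm, the libraries apart from the other 5 were as follows, in CPM. In replicate 1, SR30 had 8.34, against 25.9 to 33.2 in the others, LTP3 had 28.6, against 3.61 to 10.8 in the others, and HOS1 had 27.4, against 41.3 to 49.3 in the others. In replicate 2, SCL30 had 218, against 159 to 174 in the others, and NF-YC12 had 0.984, against 0 in the others. In replicate 3, COR15A had 3524, against 556 to 1435 in the others, and KAT1 had 3.71, against 0 to 0.901 in the others. In replicate 4, CRK18 had 13.6, against 0.901 to 2.69 in the others. In replicate 7, XTH5 had 0.901, against 0 in the others. Where the other 5 libraries had 0, as for XTH5 and NF-YC12, any single count passes the test, so these flags say little about the library.

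In nuclei, the libraries apart from the other 5 were as follows, in CPM. In replicate 2, FBR12 had 49.5, against 31.1 to 37.3 in the others, and EIF4G had 152, against 123 to 130 in the others. In replicate 3, CRK4 had 8.55, against 4.07 to 5.32 in the others, and CASP2 had 0.899, against 1.55 to 1.85 in the others. In replicate 4, CYP97B3 had 40.3, against 48 to 51.3 in the others, PAC1 had 17.7, against 7.6 to 9.75 in the others, HTR11 had 4.06, against 1.26 to 2.07 in the others, and SAR1 had 40.3, against 50.5 to 54.2 in the others. In replicate 7, HON5 had 61.9, against 74.6 to 81.7 in the others, ADR1-L2 had 47.8, against 35.3 to 37.6 in the others, and LP1 had 63.5, against 38.8 to 46.9 in the others.

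The difference between fractions itself differed between settings by the edgeR interaction test. For genotype at 21 °C 1151 genes were called. Toward nuclei in tho5ab moved CSR1 (2.48), PDC2 (1.83) and HON5 (1.69), and toward cytoplasm CYP97B3 (-4.01), SR30 (-1.61) and SR45a (-1.37). For temperature in Col-0 2878 genes were called. Toward nuclei at 37 °C moved MUR1 (2.24), ATMS1 (1.94) and SAM-2 (1.77), and toward cytoplasm SR30 (-3.63), SCL33 (-2.55) and SR45a (-2.18). SR30, HON5 and CYP97B3 each also have a library apart from the others, as given before.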

How the results depend on the processing

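Apart from the run on genes without overlap (8041 calls), the alternatives gave 10566 to 14678 called genes. Leaving out 1 library at a time gave 11717 to 12023 calls (6801 to 7104 higher, 4916 to 5032 lower). Scaling moved the split most: library totals gave 12218 higher and 2460 lower calls, with 542 calls in the opposite direction, and the DESeq2 test gave 9479 higher and 4348 lower. The 11993 tested genes without overlap with another gene held 4622 higher calls, since fewer genes were tested. With library totals the called genes AGO4 (0.60), WRKY65 (0.38), ELF4 (0.19) and CHR1 (0.18) changed direction, and GRP7 (1.12), RPN1B (1.10), EIF4G (1.09), ADR1-L2 (1.09), OTP70 (1.04) and MP (0.99), negative and not called before, were called higher. Genes without introns minus genes with introns was 0.214 in the longest quartile of coding length, against -0.444 over all genes, and the gap for a hydrophobic protein start fell to 0.155 in the lowest quartile of mean log2 CPM (exact permutation p = 0.175). The cause was not tested. Of 713 medians of the 31 lists under alternatives, 634 moved by less than the spread between replicates. Of these alternatives 12 only left out 1 library, so the pooled count says little about scaling. With library totals the medians of the SR, SAUR and expansin lists and of the phloem, xylem, meristem and root markers changed sign. For the 121 genes described, dropping the filter and the count minimum of 10 changed no call, and the DESeq2 size factors ended 3 and added 1.

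With the replicate number as a block 11945 genes were called (7018 higher, 4927 lower), and 10566 with the 12 libraries alone and the block, against 11484 without it. Same-numbered libraries of the 2 fractions had correlated deviations of -0.01 to 0.17, over 0.1 for 4 of 6 numbers, and 3 of 6 correlated best with their own number, so the numbers were not taken as pairing. Depth in cytoplasm limits the nuclear end of the comparison.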
